A study of Mus musculus with 2 samples.

Results

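The bone morphogenetic protein (BMP) and Id gene group comprised 10 genes, namely the ligands Bmp2, Bmp4 and Bmp7, the receptors Bmpr1a and Bmpr2, the inhibitory Smads Smad6 and Smad7, and the target genes Id1, Id2 and Id3. They were chosen by name, and every probe set annotated with 1 of these symbols was taken, which gave 22 probe sets of 45101 and 10 genes of 18193 named on the array. Signals were compared between small-intestinal crypts of Lpcat3 F/F, Villin-CreERT2 mice (knockout) and of Lpcat3 F/F mice (control). Lpcat3 encodes a lysophospholipid acyltransferase that places polyunsaturated fatty acids into membrane phospholipids. All mice carried floxed Lpcat3 alleles, were 8 to 10 weeks old and received 1 mg of tamoxifen a day for 5 days, with crypts taken 2 weeks later. The knockout mice also carried Cre recombinase fused to a tamoxifen-responsive receptor domain under the Villin promoter, which is active in intestinal epithelium, whereas the control mice had no Cre. RNA of 5 mice was pooled for each genotype and read on 1 Affymetrix array, so genotype, Cre, pool and array cannot be told apart. With 1 array a group the genotypes could not be tested, and no p-values are given.

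BMP ligands bind a complex of type I receptors such as Bmpr1a and the type II receptor Bmpr2, which phosphorylates Smad1, Smad5 and Smad9. These join Smad4, enter the nucleus and switch on target genes that include the Id genes and the feedback inhibitors Smad6 and Smad7. In the intestine the pathway is held low at the crypt base by antagonists from stromal cells and is more active toward the villus, and loss of Bmpr1a in mouse gut expands the stem cell compartment. Id proteins carry a helix-loop-helix domain without a DNA-binding region and hold back basic helix-loop-helix transcription factors.

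As a check of the labels, Lpcat3 had a signal of 928 in the knockout pool, against 4691 in the control pool, a log2 ratio of -2.34. Values are MAS5 signals, a linear brightness per probe set. Signals under 92.9, the median of all non-control values, were treated as not measured, and a ratio with 1 array below this floor is a bound. A gene was read by its brightest probe set unless stated otherwise. The only error the files give is technical, from the disagreement of different probe sets of the same gene, with an SD of 0.28 log2 units over 4582 genes. It fell with brightness, at 0.35 for the dimmest genes (second probe set between 95.1 and 215), 0.30 and 0.25 in the ranges up to 428 and 992, and 0.18 for brighter ones. It leaves out the spread between mice, pools and arrays.

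The BMP and Id genes differed little between the pools. Of the 10 genes, 9 were measured on both arrays. Bmp2 alone was lower in the knockout pool by 1.5-fold or more, none of the 9 was higher by that much, and the other 8 lay within 1.5-fold. Over all 11496 genes measured, 8.74% were lower by 1.5-fold or more and 4.76% were higher by 1.5-fold or more, so 1 of 9 (11.1%) is close to the background share. The median log2 ratio of the 9 genes was -0.12, against -0.042 over all genes measured. Both arrays read 15 member probe sets above the floor, 7 of them higher and 8 lower in the knockout pool, while a further 2 were above it on 1 array and 5 on neither. Of the 17 read on either array, 1 was lower by 1.5-fold or more and 0 were higher by as much, against 8.35% and 5.16% of all 20277 such probe sets named for 1 gene.

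**Figure D1:**
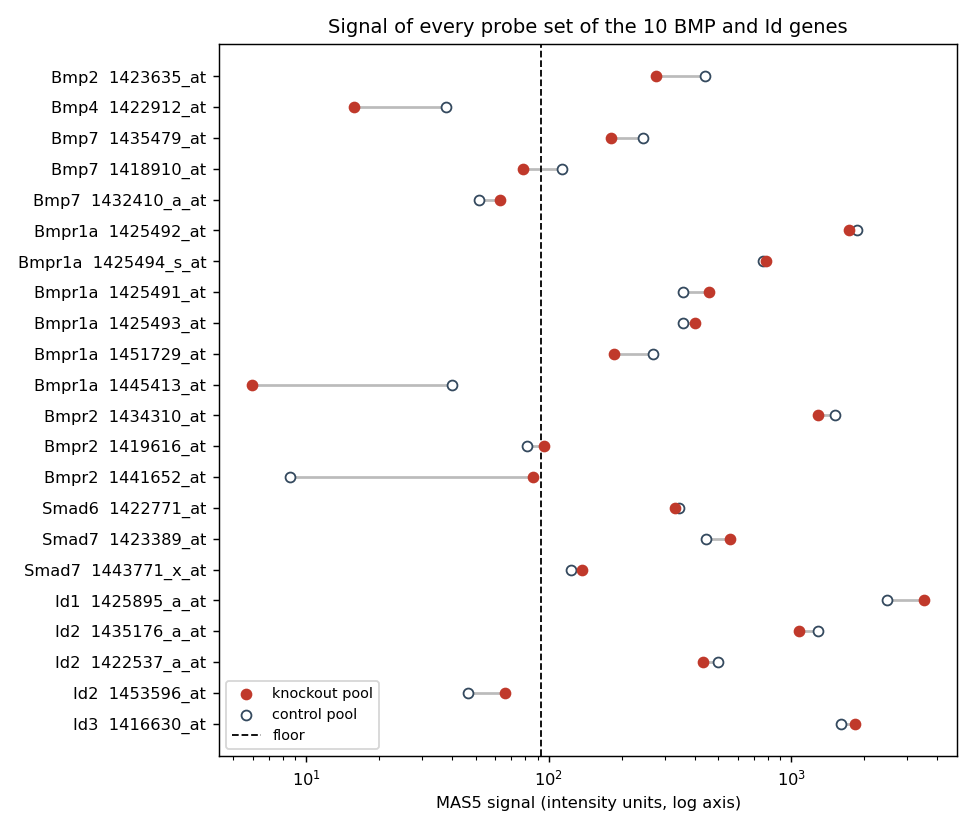
MAS5 signal (log axis) of all 22 probe sets of the 10 genes in the knockout pool (filled) and the control pool (open), with the floor of 92.9 as a dashed line. Each point is 1 array; pairs above the floor lie close together, and the widest gaps are those of probe sets below it on both arrays.

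Among the ligands, both measured genes were lower in the knockout pool. Bmp2, a ligand that mature intestinal epithelium of the mouse is known to make, had a signal of 276 in the knockout pool and 440.5 in the control pool (probe set 1423635_at). Its log2 ratio was -0.68 (1.60-fold lower), which is 2.28 technical SDs at this brightness, and 5.87% of the genes that both arrays read above the floor had a lower ratio. It was read by 1 probe set, so no second reading of the gene was available. With the floor at the 70th percentile, which lies above its knockout signal, or with a pseudocount, Bmp2 was within 1.5-fold (-0.47 and -0.53). In RNA from whole crypts, fewer cells of a type and less RNA per cell cannot be told apart.

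Bmp7, another secreted BMP ligand, had a signal of 180 in the knockout pool and 243 in the control pool by its brightest probe set (1435479_at). The log2 ratio was -0.44, or 1.24 technical SDs at this brightness. A second Bmp7 probe set read 78.0 in the knockout pool, below the floor, and 113 in the control pool, and its last was below the floor on both arrays (62.5 in knockout and 51.3 in control). Bmp7 thus lay lower in the knockout pool by both probe sets above the floor on at least 1 array, the second of which gives only a bound (at least 1.22-fold).

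Bmp4, the ligand known in mouse intestine from the mesenchyme beneath the epithelium, was not measured. Its 1 probe set read 15.8 in the knockout pool and 37.8 in the control pool, both below the floor, and values there have no order. Markers of the cells that make it were also dim. Of 16 fibroblast and smooth muscle markers, 12 were below the floor on both arrays, among them Pdgfra (19.7 in knockout, 47.2 in control), Col1a1 (15.3 in knockout, 38.4 in control) and Col3a1 (56.6 in knockout, 23.5 in control). The 4 above it on at least 1 array went both ways, with Acta2 at 0.76 and Col1a2 at least 1.25-fold higher, Des at least 1.62-fold lower and Vim at -0.31. The summed signal of all 16 was 1115 in the knockout pool and 1138 in the control pool, but it includes the 12 below the floor, where values have no order. Of 10 endothelial markers, 8 were below the floor on both arrays. The others were Esam (188 in knockout, 218 in control) and Kdr (91.9 in knockout, below the floor, and 99.8 in control).

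Both receptors were close to equal in the pools. Bmpr1a, the type I receptor, had a signal of 1719 in the knockout pool and 1865 in the control pool (1425492_at), a log2 ratio of -0.12. Its other 4 probe sets above the floor did not share a direction. They read 787 in knockout and 762 in control (1425494_s_at, 0.046), and 457 in knockout and 358 in control (1425491_at, 0.35). The remaining pair read 401 in knockout and 358 in control (1425493_at, 0.16), and 186 in knockout and 269 in control (1451729_at, -0.54). Bmpr1a probe sets therefore spanned 0.89 log2 units, with 3 higher and 2 lower in the knockout pool, while the median span over the 275 genes with at least 5 such probe sets was 0.66. A sixth was below the floor on both arrays, at 5.99 in knockout and 39.7 in control.

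Bmpr2, the type II receptor, had a signal of 1292 in the knockout pool and 1514 in the control pool (1434310_at), a log2 ratio of -0.23 or 1.25 technical SDs at this brightness. Its second probe set read 95.0 in knockout and 81.3 in control, at the edge of the floor. The remaining one (1441652_at) read 85.6 in knockout and 8.52 in control, both below the floor, where values have no order.

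**Figure D2:**
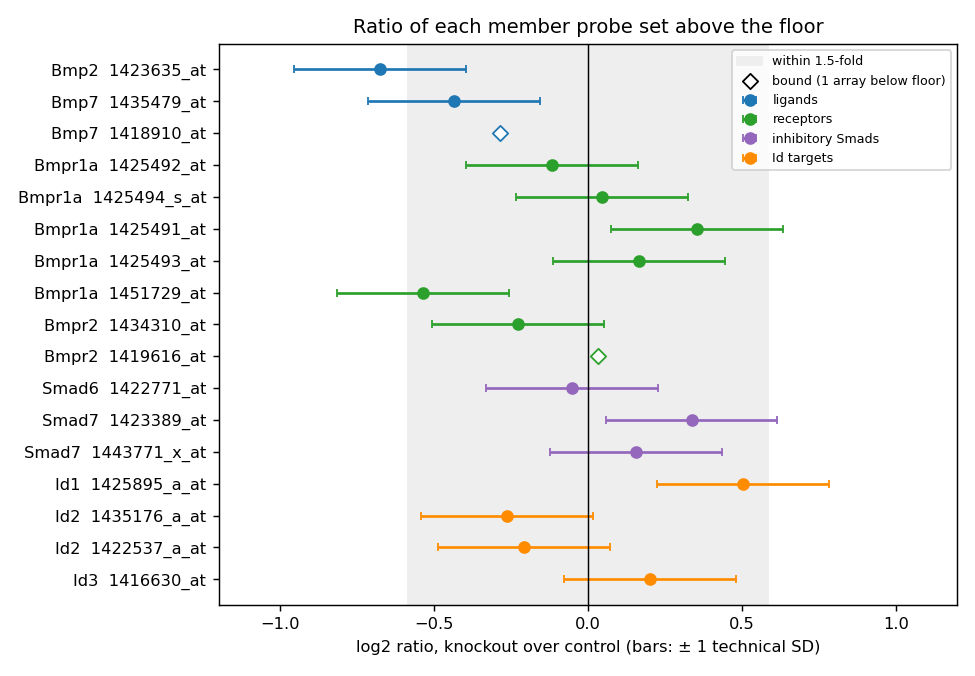
Log2 ratio, knockout over control, of the 17 member probe sets above the floor on at least 1 array, coloured by role. Bars are ± 1 technical SD (0.28) and open diamonds are bounds with 1 array below the floor; the Bmp2 point lies outside the grey band of 1.5-fold and the other 16 lie inside it.

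The inhibitory Smads, which block receptor signalling and are themselves switched on by it, did not share a direction. Smad6, the inhibitor more selective for BMP receptors, had a signal of 332 in the knockout pool and 344 in the control pool (1422771_at), a log2 ratio of -0.053 that turned to 0.028 after quantile normalization. Smad7, which also inhibits transforming growth factor beta receptors, had a signal of 560 in the knockout pool and 443 in the control pool (1423389_at), a log2 ratio of 0.34. Its second probe set gave 137 in knockout and 123 in control, a ratio of 0.16, so Smad7 was higher in the knockout pool by both readings and by less than 1.5-fold in each.

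The Id genes, the classical read-out of BMP signalling, were split, with Id1 and Id3 higher and Id2 lower in the knockout pool. Id1 had a signal of 3515 in the knockout pool and 2482 in the control pool (1425895_a_at). The log2 ratio of 0.50 (1.42-fold) was the highest of the 9 measured genes, at 2.73 technical SDs for this brightness, and 93.6% of the genes that both arrays read above the floor had a lower ratio. Id1 is just short of 1.5-fold, and 1 probe set reads it.

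Id3 had a signal of 1835 in the knockout pool and 1595 in the control pool (1416630_at), a log2 ratio of 0.20 or 1.10 technical SDs at its brightness. Id2 had a signal of 1072 in the knockout pool and 1287 in the control pool (1435176_a_at), a log2 ratio of -0.26 or 1.44 technical SDs. The second Id2 probe set gave 431 in knockout and 498 in control, a ratio of -0.21, close to the first. Its last probe set was below the floor on both arrays (65.7 in knockout and 46.5 in control).

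Id2 is also known from natural killer cells and intraepithelial lymphocytes, and genes of these cells moved in the same pools. T and natural killer cell markers were lower in the knockout pool in all 12 measured cases, and by 1.5-fold or more in 11 (median log2 ratio -2.10), with a summed signal over the 13 markers named on the array of 9567 in knockout and 45309 in control. The 7 measured B and plasma cell markers were all higher, 6 by at least 1.5-fold, with sums of 5220 in knockout and 1492 in control. Myeloid markers went both ways, 5 of 7 higher, with Csf1r at 2.53 (700.0 in knockout, 121 in control) and C1qa at least 2.64-fold higher. Sums over the 9 named were 3953 in knockout and 3884 in control. Most of each sum came from Lyz2 (2477 in knockout, 3225 in control, log2 ratio -0.38), so the sums do not describe the other myeloid markers. Markers of the epithelium itself were near equal, with all 9 within 1.5-fold and a median of 0.14. Of 12 villus enterocyte markers, Alpi (0.62) and Mttp (0.66) were higher by 1.5-fold or more and Lct (-1.36) and Nt5e (-1.13) lower by as much. The part of these cell populations in the values of Id2, Id1 and Bmp2 was not tested.

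Promoter sequence is shown for the 3 BMP-induced members that have an entry in the RefSeq promoter table (GRCm38.p6), to set the Smad-type letters in Id2, Id3 and Smad6 beside the direction of each gene. The 250 bases before the gene start are printed 5′ to 3′ on the gene's strand, and capitals mark GGCGCC, a GC-rich motif that BMP-activated Smads are known to bind, and GTCT or its complement AGAC, the short Smad motif.
Id2 (chr12:25096093-25096342, - strand): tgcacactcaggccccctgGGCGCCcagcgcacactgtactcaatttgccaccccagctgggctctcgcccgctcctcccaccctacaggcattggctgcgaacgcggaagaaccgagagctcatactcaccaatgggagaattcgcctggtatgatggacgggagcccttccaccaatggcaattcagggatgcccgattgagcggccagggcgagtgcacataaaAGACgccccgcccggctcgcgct
Id3 (chr4:136143572-136143821, + strand): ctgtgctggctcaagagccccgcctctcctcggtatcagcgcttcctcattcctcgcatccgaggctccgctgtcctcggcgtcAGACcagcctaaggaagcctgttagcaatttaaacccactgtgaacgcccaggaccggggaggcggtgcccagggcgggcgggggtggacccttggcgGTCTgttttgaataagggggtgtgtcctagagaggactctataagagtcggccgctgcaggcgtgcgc
Smad6 (chr9:64022060-64022309, - strand): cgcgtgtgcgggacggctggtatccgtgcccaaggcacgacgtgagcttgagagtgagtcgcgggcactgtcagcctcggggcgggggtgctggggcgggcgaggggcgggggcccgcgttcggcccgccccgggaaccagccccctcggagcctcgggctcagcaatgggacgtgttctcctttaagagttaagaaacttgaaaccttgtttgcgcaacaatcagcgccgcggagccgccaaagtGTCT
Id2, which was lower in the knockout pool, holds 1 GGCGCC (231 bases before the start) and 1 GTCT or AGAC. Id3, which was higher, holds 2 copies of GTCT or AGAC and no GGCGCC, and Smad6, which was near equal, holds 1 copy at the end of the window. Over both strands GGCGCC, which is its own reverse complement, occurs in 9.59% of 32851 RefSeq promoter windows of this length, and GTCT or AGAC in 82.9%, so the short motif separates few promoters from the rest. GGCGCC is also present in the windows of Bmpr1a and Bmpr2, which makes 3 of the 6 members with an entry. These 6 windows are GC-rich, at 62.8% to 78.8% against a median of 52.4% over all windows. A match is a description of letters, and motifs outside these 250 bases were not searched.

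In order of log2 ratio the 9 measured genes ran Bmp2, Bmp7, Id2, Bmpr2, Bmpr1a, Smad6, Id3, Smad7 and Id1, from -0.68 to 0.50. The technical SD of a difference between a pair of such ratios is 0.39. Neighbours in this order differed by 0.035 to 0.26, each less than that SD, so the order between neighbours is not resolved. Id1 and Bmp2, at the ends, differed by 1.18, or 2.99 of these SDs. They were picked as the extremes of 9 ratios, which by itself favours a wide gap, so this is no test of a difference. The log2 ratios of all genes above the floor on both arrays had an SD of 0.43. By their brightest probe sets the 4 measured ligands and receptors stood below 0, where 55.1% of all genes measured stood, and Bmpr1a averaged -0.018 over its probe sets. Of the inhibitory Smads and Id genes, 3 of the 5 stood above it (4 after quantile normalization, with Smad6).

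**Figure D3:**
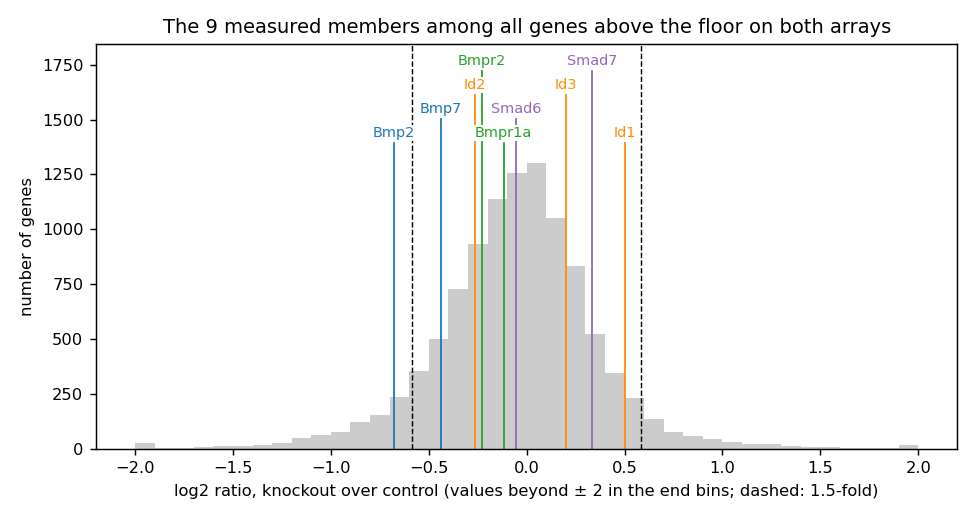
Histogram of the log2 ratio, knockout over control, of the 10452 genes that both arrays read above the floor (y axis, number of genes), with the 9 measured BMP and Id genes as coloured lines and 1.5-fold as dashed lines. Bmp2 lies just outside the lower dashed line and Id1 just inside the upper one.

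The rest of the pathway, read from a written list of 77 other genes, differed little as well. Of these genes, 71 were named by a probe set and 43 were measured, with 3 lower by 1.5-fold or more in the knockout pool (6.98%, against the background share of 8.74%) and 0 higher by as much. Both arrays read 38 of the 43 above the floor (median log2 ratio -0.12), and the other 5 ratios are bounds. Genes with a bound within 1.5-fold may therefore differ by more. In all, 30 of the 43 stood below 0 and 13 above (28 and 15 after quantile normalization), with a median log2 ratio of -0.13. Over all genes measured, 55.1% stood below 0 (52.1% after quantile normalization). The 3 genes were Bmp1, Bmp8a and Neo1, each by its brightest probe set. Averaged over probe sets the count was also 3, but with Rgmb (-0.73) in it and Neo1 (-0.27) out of it.

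Bmp1, a secreted protease that cuts the BMP antagonist chordin and procollagens and is no BMP ligand despite its name, was at least 2.81-fold lower, with a signal of 25.7 in the knockout pool, below the floor, and 261 in the control pool. Its 2 other probe sets were below the floor on both arrays. The ligand gene Bmp8a had a signal of 110 in the knockout pool and 190 in the control pool, a log2 ratio of -0.79 near the floor, by 1 probe set, and with a pseudocount it was within 1.5-fold (-0.48). Bmp8b was below the floor in the knockout pool (78.1) and at 115 in the control pool.

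The co-receptor genes Neo1 and Rgmb had lower signals in the knockout pool by their brightest probe sets. Neo1, neogenin, a receptor for repulsive guidance molecules that also takes part in BMP signalling, had a signal of 1087 in the knockout pool and 1671 in the control pool, a log2 ratio of -0.62 or 3.38 technical SDs at its brightness. Its 5 probe sets ran from -0.67 to 0.46, 3 lower and 2 higher, and their mean was -0.27, within 1.5-fold. Neo1 was also just within it after centring, with the pseudocount, and without probe sets ending in _s_at or _x_at (-0.58 in each). Rgmb, a membrane-anchored BMP co-receptor that binds neogenin, had a signal of 634 in the knockout pool and 840 in the control pool, a log2 ratio of -0.40 by its brightest probe set. All 5 Rgmb probe sets above the floor were lower in the knockout pool, from -1.16 to -0.40, and 3 of them by at least 1.5-fold. The activin type II receptor Acvr2a, at 1499 in the knockout pool and 1553 in the control pool, was at -0.051.

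The signal-transmitting Smads lay within 1.5-fold. Smad1, a BMP-activated Smad, had a signal of 3452 in the knockout pool and 4256 in the control pool (log2 ratio -0.30), with its 3 probe sets between -0.51 and -0.30. Smad4, the common partner, had a signal of 5871 in the knockout pool and 6366 in the control pool (-0.12), with its 3 probe sets between -0.43 and -0.12. Smad5, named here after its values were seen, ran from -0.45, its brightest probe set, to -0.0086 over its 3 probe sets. Their 9 probe sets were lower in the knockout pool as deposited, 8 after centring and 7 after quantile normalization. Of the probe sets of all genes, 54.1%, 49.6% and 50.4% were lower under these scalings. The 9 are repeat readings of 3 genes on the same arrays, with Smad5 added after its values were seen, so the tally is no test. Smad9 was below the floor on both arrays. Gata6, a partner transcription factor of intestinal epithelium, was at -0.046.

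Antagonists and modulators of the pathway were mostly not measured. Nog, Chrd, Grem1 and Fst, which bind and block BMP ligands or related factors, were among the 10 of 14 named antagonists and modulators that lay below the floor on both arrays. Twsg1, a chordin-binding modulator, had a signal of 442 in the knockout pool and 635 in the control pool (log2 ratio -0.52), while Tmprss6 (-0.051) and Crim1 (-0.014) were near 0. Fstl1, named after its values were seen, was below the floor in the knockout pool by both probe sets (54.3 and 4.14). In the control pool they read 116 and 147, so Fstl1 was at least 1.25-fold lower by the brighter and at least 1.58-fold lower by the dimmer. All 14 membrane and intracellular regulators were measured and lay within 1.5-fold by their brightest probe sets. Dimmer probe sets passed 1.5-fold for Map3k7 (-0.78), Smurf2 (at least 2.18-fold lower), Ppm1a (at least 2.07-fold lower) and Skil (at least 1.55-fold higher). The brightest regulators were Fkbp1a, which keeps type I receptors inactive (0.17), and Tob1, an inhibitor of Smad-driven transcription (0.25). Next came the Smad phosphatase gene Ppm1a (-0.059, but -0.43 to -0.40 by its other 3 probe sets that both arrays read above the floor).

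Of 8 measured target genes and Id partners other than the members, 4 were higher and 4 lower, all within 1.5-fold. Tcf12, which encodes a basic helix-loop-helix protein that Id proteins bind, had a signal of 2646 in the knockout pool and 3750 in the control pool (log2 ratio -0.50), although 3 of its 5 probe sets were higher. Tbx3, a transcription factor gene induced by BMP in several tissues, was at 0.35 and its 3 probe sets above the floor were all higher. Hes1, mainly a Notch target, was at -0.059. Id4, the remaining Id gene, named after its values were seen, had a ratio of -0.13 by its brightest probe set, while its others reached 0.31.

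**Figure D4:**
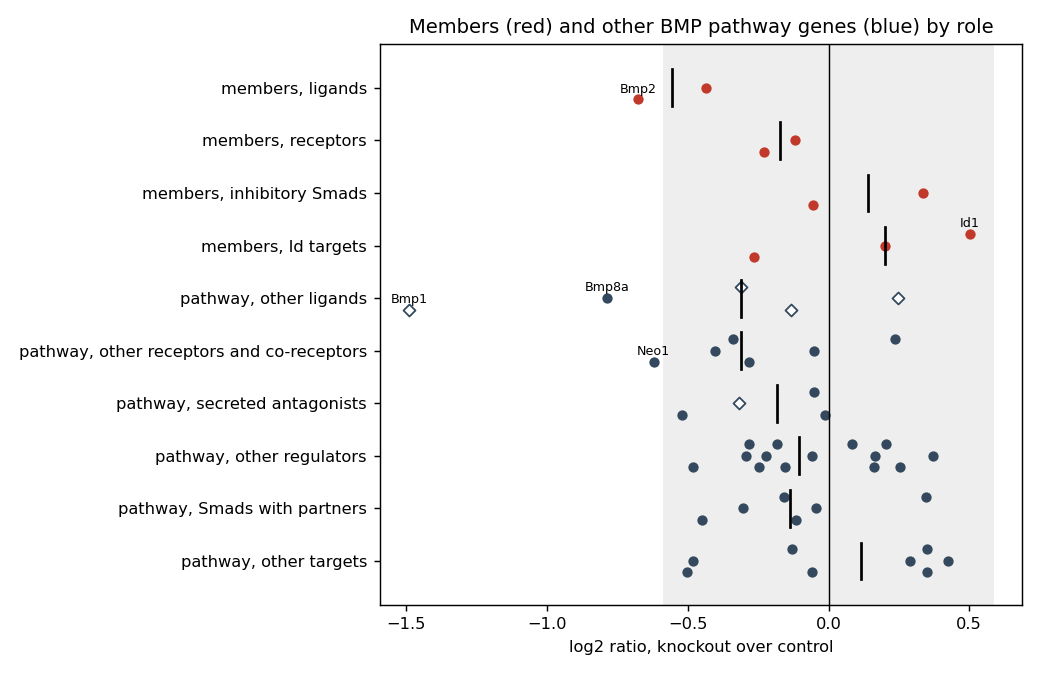
Log2 ratio, knockout over control, of each measured gene by its brightest probe set, with the members in red and the other pathway genes in blue by role (rows). Black bars are medians, open diamonds are bounds and the grey band is 1.5-fold; Bmp2, Bmp1, Bmp8a and Neo1 lie outside it.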

How the data were processed

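Each of the 2 arrays read RNA pooled from 5 mice, extracted with Trizol per the labels' protocols. The authors deposited 1 linear signal intensity for each probe set. It came from MAS5, version not given in the sources used here, per the submitters' processing notes. The method combines perfect-match and mismatch probes, so dim signals are noisy. Both columns had a mean of 500.00 after trimming 2% at each end and were used as deposited. The table's 45101 probe sets exceed those of the smaller array named in the design text. Of these, 64 control probe sets were set aside, and 34945 had 1 gene symbol, updated through Entrez identifiers to RefSeq (GRCm38.p6). Levels of different probe sets were not compared. The floor was the 50th percentile of both arrays (92.9), to which lower values were raised before the log2 ratio, knockout over control; 10452 genes were above it on both arrays and 1044 on 1. Median signal was 90.5 in knockout and 95.4 in control, and precision is limited by the number of arrays. For the technical error, the 2 brightest probe sets of each gene were subtracted and the SD of these differences was divided by the square root of 2. The ratio and error steps were tested on simulated data with the same error at every brightness and changes well above 1.5-fold. The errors by brightness and changes near 1.5-fold were not tested in this way. The members, lists and thresholds were chosen with earlier results of these data known. Named were all members, pathway genes at least 1.5-fold apart, the 3 brightest measured of each role, and markers beside a result. Of the pathway list, 6 genes without a probe set of 1 symbol were not analysed here. Alternatives covered scaling, floor, pseudocount, probe-set choice and a 2-fold threshold. Python 3.11.15, numpy 2.4.6 and pandas 2.3.3 were used.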

Additional observations from a re-analysis of the deposited data

How the results depend on the processing

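No paired analysis was possible because there is 1 array a group, which also leaves no array to omit. Over the settings tried for scaling, floor, low values and probe sets, the median of the member genes stayed between -0.13 and -0.053. None of the 71 recomputed member values moved by more than 1 technical SD, but many of them could not move. A lower floor, no floor and leaving out _s_at and _x_at probe sets gave unchanged ratios for every member measured at the main floor. The count therefore says little about how stable the ratios are. The members measured numbered 10 at a floor of the 30th percentile, where Bmp4 was at least 1.09-fold lower, and 8 at the 70th, where Bmp7 fell below it. That SD was 0.35 at a floor of the 30th percentile and 0.22 at the 70th. The count of 1 member at least 1.5-fold lower, Bmp2, became 0 at a floor of the 70th percentile (Bmp2 -0.47, since its knockout signal then lies below the floor), 0 with a pseudocount equal to the floor (-0.53, which shrinks ratios of dim genes) and 0 at a 2-fold threshold. It stayed at 1 under quantile normalization (-0.59). Smad6 was at 0.028 there, so its sign is not settled. Pathway genes at least 1.5-fold lower numbered 8 at a floor of the 30th percentile, 1 at the 70th, 1 at a 2-fold threshold and 5 with no floor, a setting added after the data were seen, and 2 after centring, with the pseudocount and without _s_at and _x_at probe sets. Those at least 1.5-fold higher numbered 2 at that lower floor, 1 with the pseudocount and 1 with no floor. Averaged over probe sets, Rgmb was at -0.73 and Neo1 at -0.27. Over all genes, 1234 were higher and 1889 lower at a floor of the 30th percentile, 308 and 432 at the 70th, and 162 and 267 at 2-fold.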
